A study of Saccharomyces cerevisiae with 24 samples.

Results

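This account covers the yeast hexose transporter genes HXT1 to HXT7 and the glucose sensor genes SNF3 and RGT2, 9 of the 6571 Saccharomyces cerevisiae genes in the count tables. The rule that picks them names the genes by locus identifier and uses no measured value, although it was written with earlier results of these data known. The study asked how the Paf1 complex subunit Rtf1 and the N-terminal helix of the ubiquitin-conjugating enzyme Rad6 act in histone H2B ubiquitylation. RNA was sequenced with its strand kept in 24 libraries, 3 biological replicates in each of 8 strain groups, grown in rich glucose medium (YPD) and harvested in log phase at an OD600 of 0.8 to 1. The glucose left in the medium at harvest is not given in the sources used here. All strains were MATa his3Δ200 lys2-128Δ ura3-52 trp1Δ63, and 1 part of Kluyveromyces lactis cells was added to 9 parts of each culture as a spike-in.

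Of the 5 tagged groups, rad6Δ tagged carried 3xHA-RTF1 and rad6Δ::KanMX. The groups rad6-R6Q and rad6-R6A,M10A carried 3xHA-RTF1 and the substituted Rad6 with a 13xMyc tag and KanMX. The group rtf1-108-110AAA carried HA-tagged Rtf1 with residues 108 to 110 changed to alanine, beside RAD6-13xMYC::KanMX. Their control, WT tagged, carried 3xHA-RTF1 and RAD6-13xMYC::KanMX, so that rad6Δ tagged differs from it by the absent Rad6 tag as well. Of the untagged groups, rad6Δ untagged carried rad6Δ::KanMX, and H2B-K123R carried lysine-to-arginine changes in both H2B genes (HTA1-htb1K123R HTA2-htb2-K123R). Their control was WT untagged. Each group is a single strain, so other differences between strains cannot be told apart from the named alleles.

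Budding yeast takes up glucose by facilitated diffusion through a family of Hxt proteins that differ in affinity. Hxt1 and Hxt3 are low-affinity carriers used when glucose is plentiful. Hxt2, Hxt6 and Hxt7 are high-affinity carriers used when it is scarce, Hxt4 is a further carrier of higher affinity, and Hxt5 is of intermediate affinity and known from slowly growing or starved cells. Snf3 and Rgt2 resemble the carriers but act as sensors of low and high glucose. Their signal removes Mth1 and Std1, the partners with which the repressor Rgt1 holds HXT promoters off, while the repressor Mig1 shuts high-affinity HXT genes at high glucose. Rad6 attaches ubiquitin to the H2B lysine that H2B-K123R replaces, a step that Rtf1 stimulates on transcribed chromatin.

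The members, with their locus identifiers, are HXT1 (YHR094C), HXT2 (YMR011W), HXT3 (YDR345C), HXT4 (YHR092C), HXT5 (YHR096C), HXT6 (YDR343C), HXT7 (YDR342C), SNF3 (YDL194W) and RGT2 (YDL138W). They lie on 3 chromosomes of the R64 assembly (coordinates from RefSeq). HXT4, HXT1 and HXT5 follow each other on the minus strand of chromosome VIII, with coding sequences at chrVIII:287081-288811, chrVIII:290913-292625 and chrVIII:294669-296447, and with 2101 and 2043 bases between neighbours. HXT7, HXT6 and HXT3 do the same on the minus strand of chromosome IV, at chrIV:1154216-1155928, chrIV:1159608-1161320 and chrIV:1162957-1164660, with 3679 and 1636 bases between them. SNF3 (chrIV:111580-114234) and RGT2 (chrIV:213351-215642) are on the plus strand of the other end of chromosome IV, and HXT2 (chrXIII:288079-289704) is on the plus strand of chromosome XIII.

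HXT6 and HXT7 are near-identical copies, and their separate counts are uncertain. Their coding sequences are 1713 bases each and differ at 3 bases, positions 1632, 1666 and 1677 from the coding start, which leaves them 99.82% identical. All 3 lie in the stretch below, printed from position 1618 to 1677 on the coding strand (R64, RefSeq) with the differing bases in capitals, because this stretch holds every coding base that can tell the genes apart.
HXT6 (chrIV:1159644-1159703, minus strand): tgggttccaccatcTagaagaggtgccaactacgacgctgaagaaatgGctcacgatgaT
HXT7 (chrIV:1154252-1154311, minus strand): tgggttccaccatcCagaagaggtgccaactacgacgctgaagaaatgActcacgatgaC
Of the 75-base words of either gene, 5% occur once in the R64 genome, and the rest are found at least once more. How reads that fit both copies were counted is not given in the sources used here.

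The other members are more easily told apart. HXT1 and HXT3 share 81.69% of aligned coding bases, HXT4 shares 81.46% with HXT6, and SNF3 shares 55.42% with RGT2. The share of 75-base words found only in the gene itself was 91.8% for HXT3, 97.3% for HXT1, 97.4% for HXT5, 99.8% for HXT4 and 100% for HXT2, SNF3 and RGT2.

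The 1000 bases before each coding start were searched on both strands for the letters CGGANNA, known as the Rgt1 site. HXT3 held 9 matches, HXT1 8, HXT5 4, HXT2, HXT4 and HXT6 3 each, HXT7 2, and SNF3 and RGT2 0. Of 5996 upstream regions of protein-coding genes searched the same way, 1.25% held at least 5 matches and 66.5% at least 1. The 300-base windows of HXT1, HXT3 and HXT5 are shown, since HXT1 fell in the mutants, HXT3 was not called and HXT5 rose in most of them, as given below. Each is written 5′ to 3′ on the coding strand (R64, RefSeq), with the matches of either strand in capitals.
HXT1 (chrVIII:292830-293129, minus strand, ending 204 bases before the coding start): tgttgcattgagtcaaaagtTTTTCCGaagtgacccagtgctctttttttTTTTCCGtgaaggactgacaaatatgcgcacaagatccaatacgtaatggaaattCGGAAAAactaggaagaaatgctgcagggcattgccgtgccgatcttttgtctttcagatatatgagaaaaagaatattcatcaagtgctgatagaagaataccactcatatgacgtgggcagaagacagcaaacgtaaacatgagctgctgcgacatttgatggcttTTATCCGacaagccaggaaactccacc
HXT3 (chrIV:1164936-1165235, minus strand, ending 275 bases before the coding start): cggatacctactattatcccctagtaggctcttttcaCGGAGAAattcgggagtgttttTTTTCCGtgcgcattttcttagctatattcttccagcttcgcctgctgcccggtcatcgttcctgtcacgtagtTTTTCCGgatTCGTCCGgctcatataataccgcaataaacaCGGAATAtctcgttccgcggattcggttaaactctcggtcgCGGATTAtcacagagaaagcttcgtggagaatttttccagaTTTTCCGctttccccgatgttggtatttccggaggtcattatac
HXT5 (chrVIII:296718-297017, minus strand, ending 270 bases before the coding start): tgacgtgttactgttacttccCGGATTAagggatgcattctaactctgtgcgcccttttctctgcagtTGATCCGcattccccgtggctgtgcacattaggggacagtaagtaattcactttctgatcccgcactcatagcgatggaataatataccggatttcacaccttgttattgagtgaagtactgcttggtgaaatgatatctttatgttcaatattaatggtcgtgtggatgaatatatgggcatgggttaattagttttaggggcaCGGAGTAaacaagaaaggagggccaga
These windows hold 4, 7 and 3 of the matches. No match of this kind overlapped a match of the other motifs. The Mig1-type motif (the letters CCGGGG, or also CTGGGG, or also GCGGGG, or also GTGGGG) was found 4 times each before HXT2 and HXT4, 3 times before HXT6, 2 times each before HXT1, HXT3, HXT7 and SNF3, 1 time before HXT5 and not before RGT2. At least 4 matches of it occur in 0.834% of the upstream regions. The stress response element CCCCT, the site of Msn2 and Msn4, was found 5 times before HXT6, 4 times before HXT7 and 2 times before HXT5. It was found 1 time each before HXT1, HXT3, HXT4 and RGT2, and not before HXT2 or SNF3. At least 4 matches occur in 2.23% of the regions, at least 2 in 21% and at least 1 in 55%. A match is a run of letters and does not show that a factor binds.

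**Figure D1:**
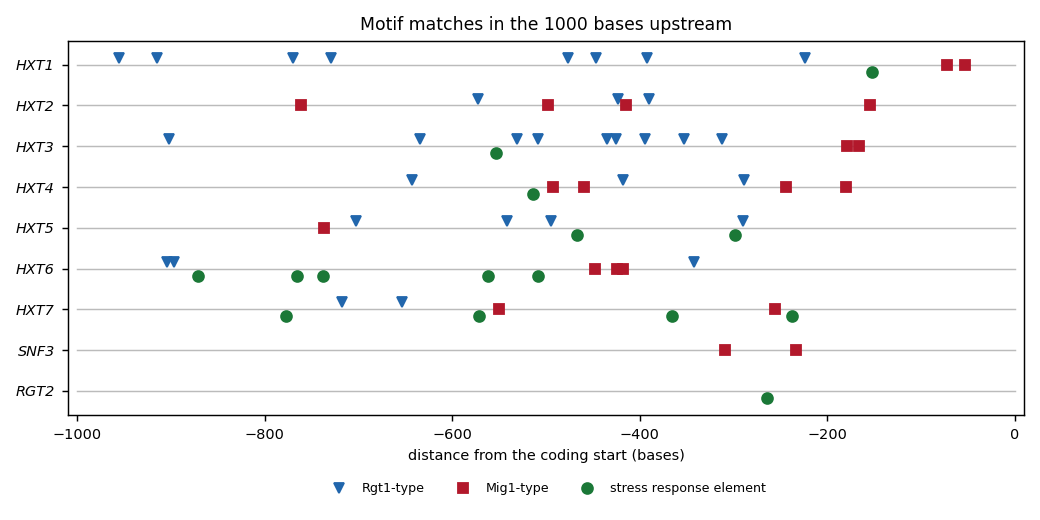
Matches to the Rgt1-type (triangles), Mig1-type (squares) and stress response element (circles) motifs in the 1000 bases before the coding start of each member, on either strand, by distance from the coding start in bases. HXT1 and HXT3 carry the most Rgt1-type matches, 8 and 9, and the stress response element is most frequent before HXT6 and HXT7, with 5 and 4 matches.

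Libraries held 7227245 to 10782960 sense counts, 411344 to 611282 antisense counts and 1051104 to 1591505 K. lactis counts. RAD6 had 0 to 1 counts in the rad6Δ libraries and 357 to 1587 elsewhere, and HIS3 had 0 in every library. In WT tagged RAD6 had 357, 467 and 362 counts. It had 1011, 1587 and 1153 in the rad6-R6Q strain, 1322, 1231 and 1420 in rad6-R6A,M10A and 476, 748 and 1320 in the rtf1-108-110AAA strain. These mutants therefore differ from their control in RAD6 counts as well, and the cause was not tested. In these strains labelled MATa the alpha-specific genes summed to 25 to 89 counts per library. The a-specific genes summed to 2574 to 3983 counts in the rad6Δ libraries, 7757 to 13316 in the other mutants and 15234 to 17100 in the wild types. Levels are given as CPM, counts scaled to a common library total with edgeR's TMM factors, and fold changes are mutant over its tag-matched wild type.

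Per kilobase of gene, HXT3 was the highest member in WT tagged, at 661 ± 127 CPM per kb (SD, n = 3). HXT1 followed at 358 ± 60.8, HXT7 at 63.9 ± 24.9, HXT2 at 43.5 ± 6.23, RGT2 at 29.96 ± 0.374, SNF3 at 15.8 ± 1.36, HXT4 at 7.76 ± 2.42, HXT6 at 3.91 ± 0.389 and HXT5 at 0.407 ± 0.303 CPM per kb. The libraries of HXT7 and HXT2 overlapped, and those of the other neighbours in this order did not. The low-affinity genes HXT3 and HXT1 were the highest by this measure. The separate values of HXT6 and HXT7 carry the uncertainty of their shared sequence.

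All 9 members passed the filter on low sense counts and were tested. In rad6Δ tagged 5 of 9 changed, 2 up and 3 down, against 41.7% of the 5790 genes tested, 21.5% up and 20.2% down. In rad6Δ untagged 5 of 9 changed, 3 up and 2 down, against 42.8% of genes, 22.3% up and 20.5% down. In H2B-K123R 2 of 9 changed, 1 up and 1 down, against 26.3% of genes, 14% up and 12.3% down. In rtf1-108-110AAA 2 of 9 changed, both down, against 24.5% of genes, 11.9% up and 12.6% down. In rad6-R6Q and rad6-R6A,M10A 4 of 9 changed, 1 up and 3 down in each. Among all genes 29.1% were called in the rad6-R6Q strain, 14.6% up and 14.5% down, and 25.2% in rad6-R6A,M10A, 12% up and 13.2% down. The number of members called is no result by itself, and what follows rests on the individual genes. The 4 tagged mutants share the WT tagged libraries and the 2 untagged mutants share WT untagged, so their fold changes are not independent of each other.

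**Figure D2:**
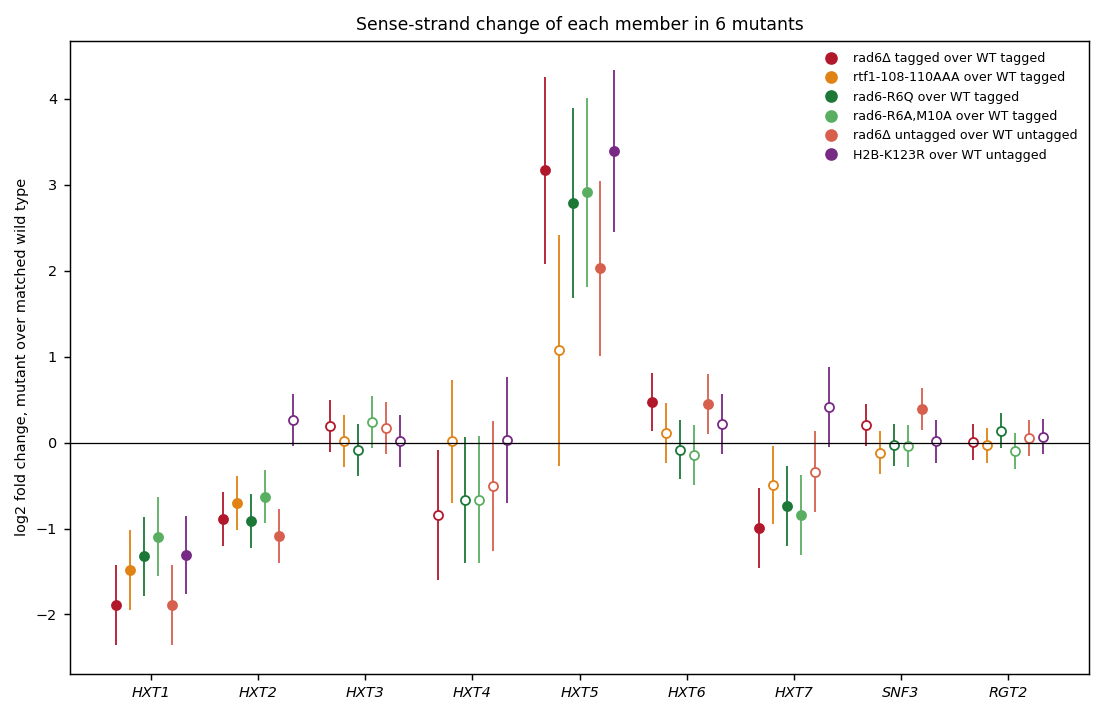
Sense log2 fold change of each member (x axis) in the 6 mutants, mutant over its tag-matched wild type, with bars for the approximate 95% interval of the edgeR fit. Filled points have an adjusted p under 0.05 and open points do not; HXT1 lies below 0 in all 6 mutants, at -1.09 to -1.89, while HXT5 lies at 1.07 to 3.39.

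HXT1, a low-affinity carrier, fell in all 6 mutants. Its level was 171, 179.6 and 146 CPM in rad6Δ tagged, 161, 245 and 253 in the rtf1-108-110AAA strain, 297, 214 and 224 in the rad6-R6Q strain and 238, 261 and 363 in rad6-R6A,M10A, against 618, 715 and 507 CPM in WT tagged. It was 159, 236 and 309 CPM in rad6Δ untagged and 398, 406 and 247 CPM in the H2B-K123R strain, against 869, 847 and 887 CPM in WT untagged. No mutant library reached the lowest library of its wild type. On the log2 scale HXT1 fell by 1.89 (SE 0.24) in rad6Δ tagged, by 1.88 (SE 0.24) in rad6Δ untagged, by 1.31 (SE 0.23) in the H2B-K123R strain, by 1.48 (SE 0.23) in the rtf1-108-110AAA strain, by 1.32 (SE 0.23) in the rad6-R6Q strain and by 1.09 (SE 0.23) in rad6-R6A,M10A. The edgeR adjusted p-values ran from 2.84e-06 in rad6Δ untagged to 0.00187 in rad6-R6A,M10A, and the calls remained with each library left out. As a ratio to the wild type this was 0.27 in rad6Δ tagged and 0.469 in rad6-R6A,M10A. RNA of whole cultures cannot tell fewer expressing cells from less RNA per cell.

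HXT3, the other low-affinity carrier and the neighbour of HXT6, was called in none of the 6 mutants. It averaged 1283 ± 73.7 CPM in rad6Δ tagged, 1138 ± 171 in the rtf1-108-110AAA strain, 1061 ± 144 in the rad6-R6Q strain and 1331 ± 219 in rad6-R6A,M10A, against 1126 ± 217 CPM in WT tagged (SD, n = 3 each). It averaged 1465 ± 78.9 CPM in rad6Δ untagged and 1316 ± 216 in the H2B-K123R strain, against 1303 ± 158 CPM in WT untagged. The libraries of every mutant overlapped those of its wild type. The log2 fold changes lay between -0.09 and 0.24 with adjusted p-values of at least 0.269 in edgeR, and the widest bounds of their 95% intervals were -0.39 and 0.54. Both HXT1 and HXT3 carry many of the Rgt1-type letters printed above.

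**Figure D3:**
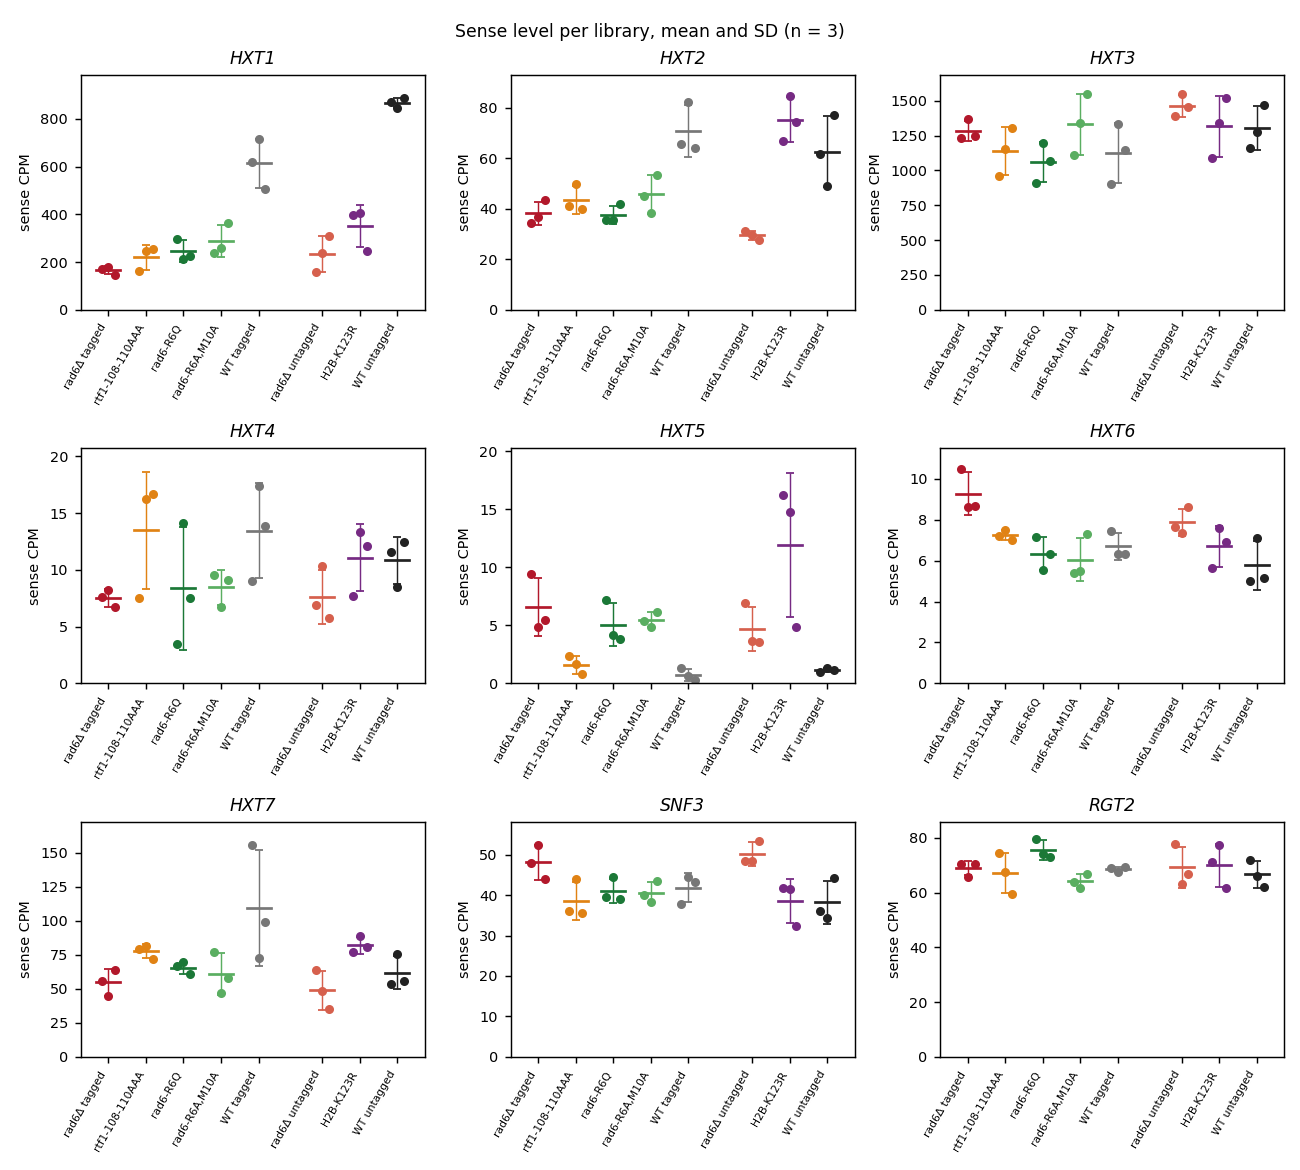
Sense level in CPM (y axes, from 0) of each member in every library, by group along the x axis, with lines at the mean and bars for the SD of 3 libraries. The tagged groups stand at the left with WT tagged after them, the untagged groups at the right with WT untagged last; the HXT1 libraries of the mutants sit at 146 to 406 CPM, below all libraries of both wild types.

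The summed level of HXT1 to HXT7 per kilobase shows how the makeup of the counted transporter reads differed. HXT1 made up 10.5% ± 0.87 of it in rad6Δ tagged, 14.4% ± 1.54 in the rtf1-108-110AAA strain, 17.3% ± 4.41 in the rad6-R6Q strain and 16.3% ± 1.26 in rad6-R6A,M10A, against 31.5% ± 3.85 in WT tagged (SD, n = 3 each). It made up 12.9% ± 3.59 in rad6Δ untagged and 19.05% ± 5.78 in the H2B-K123R strain, against 37.5% ± 2.44 in WT untagged. The groups did not overlap in any of these comparisons. HXT3 made up 70.7% to 81.9% of the sum in the 6 mutant groups, against 57.8% in WT tagged and 56.3% in WT untagged. The sum itself was 0.737 to 0.9 of the wild-type sum. How reads of the sequence shared by HXT6 and HXT7 were counted is not given. The sum and the shares therefore hold for the counts and may differ in the RNA. Each share difference had an exact two-sided permutation p of 0.1 (0.1 after Benjamini-Hochberg adjustment over 7 comparisons), the smallest that 3 libraries against 3 can give. These shares were added after the values were seen, and WT tagged stood 6 percentage points under WT untagged with the same p.

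**Figure D4:**
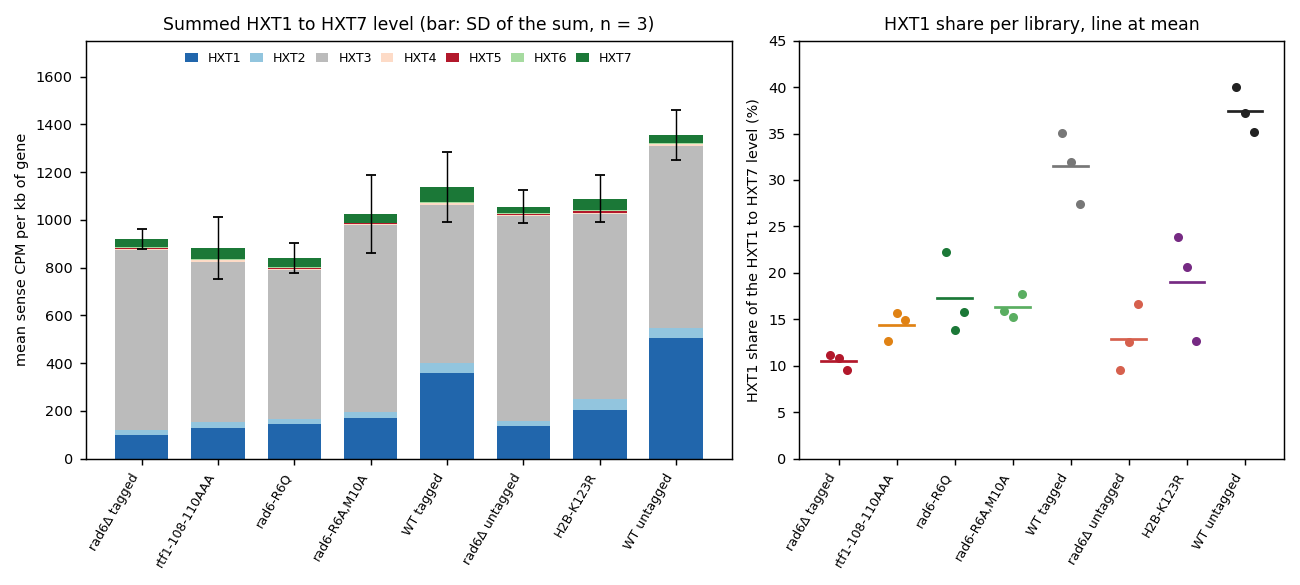
Left, mean sense level per kilobase of HXT1 to HXT7 stacked by gene for each group, with a bar for the SD of the sum over 3 libraries. Right, the HXT1 share of that sum in percent for every library with a line at the mean; group means are 10.5% to 19.05% in the mutants, 31.5% in WT tagged and 37.5% in WT untagged. The HXT6 and HXT7 parts depend on how reads of their shared sequence were counted, which is not given.

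HXT2, a high-affinity carrier, fell in 5 of the 6 mutants, and H2B-K123R was the exception. It had 34.2, 36.9 and 43.4 CPM in rad6Δ tagged, 41.1, 49.7 and 39.7 in the rtf1-108-110AAA strain, 35.4, 35.6 and 41.8 in the rad6-R6Q strain and 45.2, 38.4 and 53.6 in rad6-R6A,M10A, against 65.6, 82.4 and 64.2 CPM in WT tagged. It had 31.4, 29.6 and 27.8 CPM in rad6Δ untagged and 66.8, 84.5 and 74.2 CPM in the H2B-K123R strain, against 61.7, 49.0 and 77.2 CPM in WT untagged. Except for H2B-K123R, whose libraries overlapped WT untagged, no mutant library reached its wild type. HXT2 fell by 0.89 on the log2 scale in rad6Δ tagged, by 1.08 in rad6Δ untagged, by 0.70 in the rtf1-108-110AAA strain, by 0.91 in the rad6-R6Q strain and by 0.63 in rad6-R6A,M10A (SE 0.16 each), with edgeR adjusted p-values of at most 0.00553. In H2B-K123R its log2 fold change was 0.26 (SE 0.16, edgeR adjusted p = 0.227). Scaled to K. lactis counts, HXT2 in rad6-R6A,M10A missed the threshold (log2 fold change -0.41, edgeR adjusted p = 0.0585).

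HXT7, a high-affinity carrier, fell in 3 tagged mutants, but the size depends on a WT tagged library. It had 56.0, 44.5 and 64.2 CPM in rad6Δ tagged, 79.7, 81.6 and 71.7 in the rtf1-108-110AAA strain, 66.6, 69.5 and 60.6 in the rad6-R6Q strain and 77.3, 47.1 and 58.3 in rad6-R6A,M10A, against 156, 72.7 and 99.4 CPM in WT tagged. WT tagged replicate 1, at 1192 counts, was the highest of all 24 libraries. HXT7 fell by 0.99 on the log2 scale in rad6Δ tagged (SE 0.24, edgeR adjusted p = 0.00209), by 0.74 in the rad6-R6Q strain (SE 0.23, edgeR adjusted p = 0.0224) and by 0.84 in rad6-R6A,M10A (SE 0.24, edgeR adjusted p = 0.0123). Without that replicate the values were -0.68 in rad6Δ tagged (edgeR adjusted p = 0.02), -0.43 in the rad6-R6Q strain (0.164) and -0.52 in rad6-R6A,M10A (0.097). The call in the rad6-R6Q strain was also lost without its replicate 1 (0.0539) or 3 (0.0674), and that in rad6-R6A,M10A without its replicate 2 (0.0571). In rtf1-108-110AAA the log2 fold change was -0.49 (edgeR adjusted p = 0.132), and -0.70 (0.0332) without WT tagged replicate 2. In the untagged groups HXT7 had 63.6, 48.2 and 35.0 CPM in rad6Δ untagged and 76.8, 88.9 and 80.8 CPM in the H2B-K123R strain, against 53.5, 75.7 and 56.1 CPM in WT untagged. Neither passed the test, with log2 fold changes of -0.34 in rad6Δ untagged and 0.41 in the H2B-K123R strain and edgeR adjusted p-values of 0.267 and 0.211. In a fit of the compared groups alone H2B-K123R passed (0.42, edgeR adjusted p = 0.0473).

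HXT6, the copy of HXT7, had 41 to 86 counts per library, against 349 to 1192 for HXT7. It rose in both RAD6 deletions, to 9.28 ± 1.06 CPM in rad6Δ tagged against 6.70 ± 0.666 CPM in WT tagged, and to 7.88 ± 0.673 CPM in rad6Δ untagged against 5.76 ± 1.18 CPM in WT untagged (SD, n = 3 each). The log2 fold changes were 0.47 (SE 0.17, edgeR adjusted p = 0.0342) and 0.45 (SE 0.18, edgeR adjusted p = 0.0438). Both calls were lost in DESeq2, with adjusted p-values of 0.0657 and 0.0871, and that in rad6Δ untagged also in edgeR with no filter (0.0529) or only the compared groups (0.0815). The first missed the threshold in edgeR when rad6Δ tagged replicate 1 (0.138) was left out, or WT tagged replicate 2 (0.0901) or 3 (0.1), and the second did without rad6Δ untagged replicate 1 or 3 or WT untagged replicate 1 or 3 (0.0633, 0.135, 0.165 and 0.15). Summed, HXT6 and HXT7 fell by 0.88 in rad6Δ tagged, by 0.72 in the rad6-R6Q strain and by 0.81 in rad6-R6A,M10A on the log2 scale, with edgeR adjusted p-values of 0.0026, 0.0148 and 0.00812. The sum was not called in the other mutants. Its log2 values were -0.28 in rad6Δ untagged (edgeR adjusted p = 0.323), 0.38 in H2B-K123R (0.2) and -0.475 in rtf1-108-110AAA (0.11). Without WT tagged replicate 1 the sum missed the threshold in the rad6-R6Q strain, at -0.40 (0.155), and in rad6-R6A,M10A, at -0.49 (0.0879). It also did so without rad6-R6Q replicate 3 (0.0612) or rad6-R6A,M10A replicate 2 (0.0503). Without WT tagged replicate 2 the sum was called in the rtf1-108-110AAA strain (-0.65, edgeR adjusted p = 0.0311). In a fit of the compared groups alone, the edgeR adjusted p in the rad6-R6Q strain was 0.0784 for HXT7 and 0.0832 for the sum, and in rad6-R6A,M10A 0.1 for HXT7 and 0.0962 for the sum. With K. lactis scaling it was 0.0988 for HXT7 and 0.106 for the sum in the rad6-R6Q strain, and 0.0539 and 0.0566 in rad6-R6A,M10A.

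HXT4, which lies next to HXT1, was called in none of the 6 mutants on the sense strand. It had 7.57, 8.26 and 6.68 CPM in rad6Δ tagged, against 9.04, 17.4 and 13.9 CPM in WT tagged, so that every deletion library was below the wild type. The log2 fold change was -0.84 (SE 0.38, edgeR adjusted p = 0.0839), and without WT tagged replicate 1 it was -1.09 (0.0472). A fit of these groups alone called it with all libraries in (log2 fold change -0.84, edgeR adjusted p = 0.0149). The log2 fold change was -0.67 in the rad6-R6Q strain (edgeR adjusted p = 0.19), -0.66 in rad6-R6A,M10A (0.207) and -0.50 in rad6Δ untagged (0.307). In rad6-R6Q the libraries spread from 3.42 to 14.1 CPM, and without replicate 2 of that mutant the log2 fold change was -1.32 (edgeR adjusted p = 0.0131). In rtf1-108-110AAA and H2B-K123R the log2 fold changes were 0.02 and 0.03, with 95% intervals from -0.70 to 0.73 and from -0.71 to 0.76.

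HXT5, the carrier of slow growth, was the lowest member in both wild types and rose in 5 mutants. It had 77, 39 and 43 counts in rad6Δ tagged, 16, 13 and 8 in the rtf1-108-110AAA strain, 65, 45 and 37 in the rad6-R6Q strain and 50, 40 and 54 in rad6-R6A,M10A, against 10, 5 and 2 counts in WT tagged. It had 55, 33 and 35 counts in rad6Δ untagged and 147, 128 and 40 in the H2B-K123R strain, against 8, 11 and 9 in WT untagged. Apart from rtf1-108-110AAA, whose lowest library was under the highest of WT tagged, all mutant libraries were above their wild type. The log2 fold changes were 3.17 (SE 0.55, edgeR adjusted p = 0.000108) in rad6Δ tagged, 2.02 (SE 0.52, 0.00353) in rad6Δ untagged, 3.39 (SE 0.48, 2.45e-05) in the H2B-K123R strain, 2.78 (SE 0.56, 0.000942) in the rad6-R6Q strain and 2.91 (SE 0.56, 0.000787) in rad6-R6A,M10A. In rtf1-108-110AAA it was 1.07 with a 95% interval from -0.27 to 2.41 (edgeR adjusted p = 0.275). Even where it rose, HXT5 stayed a minor gene, at 0.632% of the summed HXT1 to HXT7 level in the H2B-K123R strain and 0.0466% in WT untagged. In the unstranded counts, which add the antisense reads, the log2 fold changes were smaller, at 0.81 in rad6Δ tagged, 1.03 in rad6Δ untagged, 1.71 in the H2B-K123R strain, 0.30 in the rtf1-108-110AAA strain, 0.60 in the rad6-R6Q strain (edgeR adjusted p = 0.0658) and 0.84 in rad6-R6A,M10A. Sense counts alone are low, and leaving out single libraries moved the rad6Δ tagged value between 2.77 and 3.84.

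The lower HXT5 value of rtf1-108-110AAA was compared directly with the other tagged mutants. Against rad6Δ tagged it was lower, with a log2 fold change of -2.09 (SE 0.48, edgeR adjusted p = 0.00546), the sole member called in that comparison, where 14.3% of genes were called. In the unstranded counts that difference was -0.50 (edgeR adjusted p = 0.168). Against rad6-R6Q the log2 fold change was -1.71 (SE 0.49, edgeR adjusted p = 0.903), and 0% of genes were called there. Against rad6-R6A,M10A it was -1.84 (SE 0.49, edgeR adjusted p = 0.322), where 0.0691% of genes were called. These last pairs were added after the values were seen, and neither passed the test over all genes. HXT5 was the 1 member with an unadjusted edgeR p under 0.05 in each.

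RGT2, the high-glucose sensor, had 59.6 to 79.6 CPM over all 24 libraries and was called in no mutant. Its log2 fold changes lay between -0.10 and 0.14, edgeR adjusted p-values were at least 0.349, and the widest bounds of the 95% intervals were -0.30 and 0.34. Scaled to K. lactis counts, RGT2 was called in the rad6-R6Q strain (log2 fold change 0.35, edgeR adjusted p = 0.0225). SNF3, the low-glucose sensor, had 48.4, 48.4 and 53.5 CPM in rad6Δ untagged, against 36.1, 34.4 and 44.3 CPM in WT untagged, and the groups did not overlap. It rose there by 0.39 on the log2 scale (SE 0.13, edgeR adjusted p = 0.0156). That call was lost when rad6Δ untagged replicate 3 was left out (0.0677), and also when WT untagged replicate 1 (0.0639) or 2 (0.0766) was. In rad6Δ tagged the SNF3 log2 fold change was 0.20 (edgeR adjusted p = 0.207), and in the other 4 mutants it lay between -0.12 and 0.01. K. lactis scaling made SNF3 in rad6Δ tagged a call (log2 fold change 0.39, edgeR adjusted p = 0.0207). Neither sensor gene matched the Rgt1-type letters in its 1000 upstream bases.

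Between WT tagged and WT untagged, 0 of 9 members and 0.674% of genes were called by edgeR, and DESeq2 also called 0 members. The unadjusted edgeR p was under 0.05 for 2 members. HXT1 had a log2 fold change of -0.50 (edgeR adjusted p = 0.416) and HXT7 of 0.82 (edgeR adjusted p = 0.159, and 0.0405 without WT tagged replicate 2). Summed, HXT6 and HXT7 stood 0.78 higher in WT tagged (edgeR adjusted p = 0.13), which passed in DESeq2 (0.78, adjusted p = 0.0487) and in edgeR without WT tagged replicate 2 (0.99, adjusted p = 0.0322). WT tagged is the control of the HXT7 falls given above. The difference between the effects of RAD6 deletion in tagged and untagged strains was called in 0 of 9 members and 0.276% of genes by edgeR and in 0 members by DESeq2, and 0 had an unadjusted edgeR p under 0.05. For HXT1 that difference was -0.0029 on the log2 scale with a 95% interval from -0.64 to 0.63. The widest interval was that of HXT5, whose difference was 1.14 (95% interval from -0.48 to 2.77, edgeR adjusted p = 0.716).

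Set against the RAD6 deletion of the same tag status, H2B-K123R had 3 of 9 members called, all higher, where 10.5% of genes were called, 5.25% higher. HXT2 was higher by 1.35 (SE 0.16, edgeR adjusted p = 7.32e-06), with 66.8 to 84.5 CPM in the H2B-K123R strain and 27.8 to 31.4 CPM in rad6Δ untagged. HXT5 was higher by 1.37 (SE 0.39, edgeR adjusted p = 0.028) and HXT7 by 0.75 (SE 0.24, edgeR adjusted p = 0.0468). The HXT2 call remained with each library left out, while HXT5 was lost without replicate 1 or 2 of H2B-K123R (0.129 and 0.111) or replicate 2 or 3 of rad6Δ untagged (0.116 and 0.134). HXT7 missed the threshold without replicate 1, 2 or 3 of H2B-K123R (0.0751, 0.137 and 0.0872) or replicate 2 or 3 of rad6Δ untagged (0.124 and 0.22). HXT7 was also lost with no filter (0.0554) and with K. lactis scaling (0.103), and HXT5 with only the compared groups (0.12). Summed, HXT6 and HXT7 were higher by 0.66 (SE 0.22, edgeR adjusted p = 0.055) and not called. With K. lactis scaling 2 members were called higher and 1 lower in this comparison.

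In rad6-R6Q against rad6Δ tagged, 1 of 9 members was called, HXT6 (log2 fold change -0.55, edgeR adjusted p = 0.0306), where 16.4% of genes were called. In rad6-R6A,M10A against rad6Δ tagged, 2 of 9 were called, where 8.55% of genes were called. There HXT1 was higher by 0.79 (SE 0.23, edgeR adjusted p = 0.0382) and HXT6 lower, at -0.61 (SE 0.17, edgeR adjusted p = 0.0297). HXT1 had 238, 261 and 363 CPM in rad6-R6A,M10A, all above the 146 to 179.6 CPM of rad6Δ tagged, but leaving out any library other than rad6-R6A,M10A replicate 1 took its edgeR adjusted p to between 0.0679 and 0.181. The HXT6 call in the rad6-R6Q strain was lost without replicate 2 (0.0621) or 3 (0.0601) of that mutant or replicate 1 of rad6Δ tagged (0.115). The HXT6 call in rad6-R6A,M10A was lost without its replicate 1 (0.105) or 2 (0.128) or rad6Δ tagged replicate 1 (0.151) or 3 (0.0541). The sum of HXT6 and HXT7 was called in neither mutant against rad6Δ tagged. Its log2 fold change was 0.16 in the rad6-R6Q strain (edgeR adjusted p = 0.66) and 0.07 in rad6-R6A,M10A (0.908). With K. lactis scaling the edgeR adjusted p was 0.0858 for HXT6 in the rad6-R6Q strain, and in rad6-R6A,M10A 0.0989 for HXT6 and 0.0697 for HXT1. With only the compared groups it was 0.138 for HXT6 in the rad6-R6Q strain and 0.0821 in rad6-R6A,M10A.

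Antisense reads were few at most members. HXT3 had 28685 to 39723 sense counts per mutant group, against 26917 in WT tagged and 32428 in WT untagged, yet its antisense counts were 2 to 43 per library. HXT6, HXT7 and SNF3 had 0 to 8 antisense counts per library and did not pass the filter on low counts, so 6 of 9 members were tested. At HXT5 antisense exceeded sense in all 3 libraries of rtf1-108-110AAA, WT tagged and WT untagged. Antisense made up 43.6% of both strands there in rad6Δ tagged and 81.8% in the rtf1-108-110AAA strain, against 89.2% in WT tagged. In the untagged groups it made up 63.5% in rad6Δ untagged and 39.3% in the H2B-K123R strain, against 81.1% in WT untagged. At RGT2 and HXT4 antisense made up 11.6% and 12.3% of both strands over all libraries.

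On the antisense strand HXT2 rose in 4 of 6 mutants, where its sense strand fell in 3 of them. It had 9, 6 and 8 antisense counts in rad6Δ tagged and 9, 12 and 10 in the rad6-R6Q strain, against 3, 2 and 3 in WT tagged. It had 11, 11 and 10 in rad6Δ untagged and 6, 9 and 4 in the H2B-K123R strain, against 2, 2 and 2 in WT untagged. No mutant library overlapped its wild type here. The log2 fold changes were 1.45 in rad6Δ tagged (edgeR adjusted p = 0.0339), 2.24 in rad6Δ untagged (0.00162), 1.54 in the H2B-K123R strain (0.0352) and 1.59 in the rad6-R6Q strain (0.023). With the other mutants at 1.28 in the rtf1-108-110AAA strain (0.0805) and 1.29 in rad6-R6A,M10A (0.0825), all 6 values were above 0. The rad6Δ untagged call remained with each library left out, and each of the other 3 was lost without at least 1 library, with edgeR adjusted p-values of up to 0.117 in rad6Δ tagged, 0.2 in the H2B-K123R strain and 0.0845 in the rad6-R6Q strain.

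HXT4 antisense fell in the 3 substitution mutants with tags, by 1.04 on the log2 scale in the rtf1-108-110AAA strain (edgeR adjusted p = 0.0361), by 1.06 in the rad6-R6Q strain (0.029) and by 1.30 in rad6-R6A,M10A (0.0103). It had 7, 8 and 14 counts in the rtf1-108-110AAA strain, 10, 16 and 8 in the rad6-R6Q strain and 6, 11 and 8 in rad6-R6A,M10A, against 18, 23 and 16 in WT tagged. WT untagged had 12, 10 and 10. All 3 calls were lost without WT tagged replicate 2, at edgeR adjusted p-values of 0.138, 0.117 and 0.0535. The first 2 were also lost without WT tagged replicate 1 (0.0775 and 0.065). Scaling to K. lactis counts lost them too, at -0.79 in the rtf1-108-110AAA strain (edgeR adjusted p = 0.121) and -0.85 in the rad6-R6Q strain (0.099). Leaving out mutant libraries ended the rtf1-108-110AAA call without replicate 1 (0.097) or 2 (0.109), the rad6-R6Q call without replicate 1 (0.0801) or 3 (0.132) and the rad6-R6A,M10A call without replicate 1 (0.0679).

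RGT2 antisense rose in rad6Δ untagged, by 0.84 on the log2 scale (SE 0.23, edgeR adjusted p = 0.00606), and in the H2B-K123R strain, by 0.63 (SE 0.23, edgeR adjusted p = 0.0353). Its antisense level was 9.41, 10.2 and 13.7 CPM in rad6Δ untagged and 9.47, 11.3 and 8.10 in the H2B-K123R strain, against 8.22, 4.32 and 6.12 CPM in WT untagged. HXT5 antisense rose in the same comparisons, by 0.69 (SE 0.26, edgeR adjusted p = 0.0422) in rad6Δ untagged and by 0.70 (SE 0.26, edgeR adjusted p = 0.0352) in the H2B-K123R strain. The median log2 fold change of all antisense rows tested was 0.32 in rad6Δ untagged and 0.40 in the H2B-K123R strain, which are the values to read these rises against. Scaled to antisense totals, HXT5 in both mutants (0.39 and 0.29) and RGT2 in both (0.56 and 0.23) missed the threshold. Leaving out WT untagged replicate 2 took the RGT2 adjusted p to 0.0608 in rad6Δ untagged and to 0.22 in the H2B-K123R strain. Leaving out WT untagged replicate 1 took that of HXT5 to 0.208 and 0.179, and each of these 4 calls was also lost without at least 1 other library.

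Read against all antisense rows, 1 of 6 members tested was called in rad6Δ tagged, where 27.7% of 3900 rows were called. The count was 3 of 6 in rad6Δ untagged, where 29.2% were called, and 3 of 6 in the H2B-K123R strain, where 33% were. DESeq2 called HXT2 and RGT2 in rad6Δ untagged and HXT4 in rad6-R6A,M10A, and no other antisense member in the 6 mutants. The edgeR count was 1 of 6 in the rtf1-108-110AAA strain (20% of rows), 2 of 6 in the rad6-R6Q strain (20.7% of rows) and 1 of 6 in rad6-R6A,M10A (18.6% of rows). Between WT tagged and WT untagged 0 of 6 members and 4.87% of rows were called by edgeR and 0 members by DESeq2, and HXT4 (log2 fold change 0.89, edgeR adjusted p = 0.169) was the 1 member under 0.05 before adjustment.

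**Figure D5:**
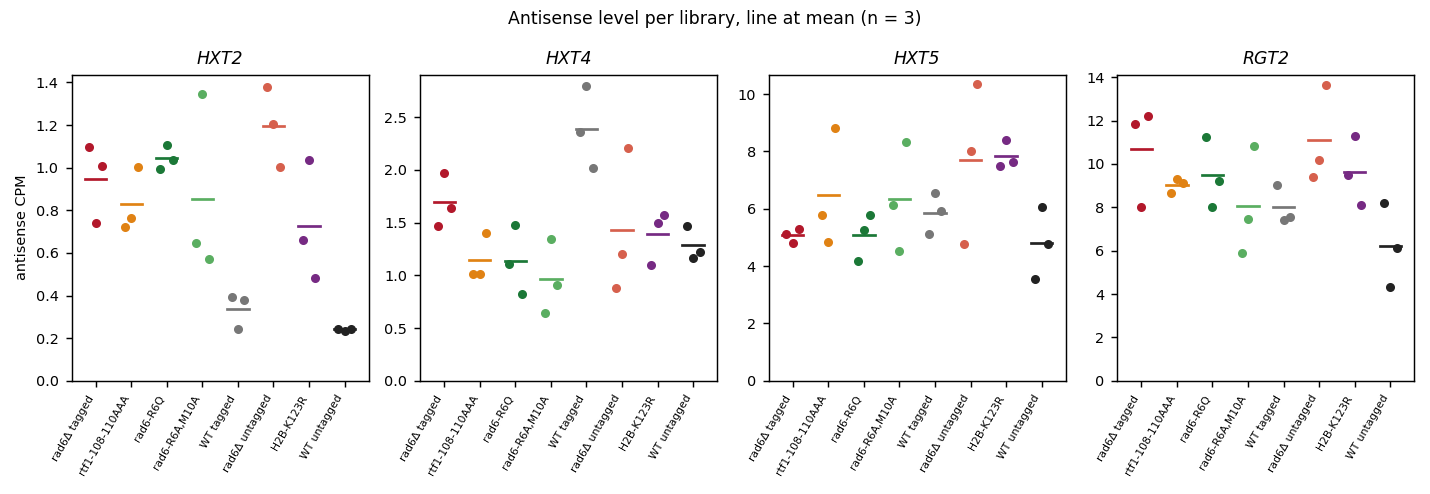
Antisense level in CPM (y axes, from 0) of HXT2, HXT4, HXT5 and RGT2 in every library, by group along the x axis with a line at the mean of 3. HXT2 antisense is above its wild type in every mutant library, and HXT4 antisense is at 2.02 to 2.80 CPM in WT tagged, above every library of the 3 tagged substitution mutants.

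Of 8 genes listed for the sensing arm that controls HXT promoters, 3 changed in rad6Δ tagged, 2 each in rad6Δ untagged and rad6-R6Q, and 1 each in the other mutants. Over all genes 41.7% were called in rad6Δ tagged, 42.8% in rad6Δ untagged, 29.1% in rad6-R6Q, 26.3% in H2B-K123R, 24.5% in rtf1-108-110AAA and 25.2% in rad6-R6A,M10A. The share of the list was below that of all genes in each mutant. RGT1, which encodes the repressor itself, and STD1 were called in none, with log2 fold changes of -0.10 to 0.25 for RGT1. MTH1, which encodes the partner of Rgt1, fell by 0.98 in the rad6-R6Q strain (edgeR adjusted p = 0.0395) and by 1.57 in rad6-R6A,M10A (0.00414). Its level was low, at 7.75 ± 1.29 CPM in WT tagged (SD). YCK2, for a casein kinase that acts below the sensors, fell in rad6Δ untagged (-0.77), H2B-K123R (-0.70) and rad6-R6Q (-0.57), while its relative YCK1 rose in rad6Δ tagged (0.77) and rtf1-108-110AAA (0.60). TUP1, for a general corepressor, was higher in rad6Δ tagged (1.30, edgeR adjusted p = 0.00838) and lower in rad6Δ untagged (-1.42, edgeR adjusted p = 0.00842). These opposite calls rest on low levels. TUP1 averaged 11.3 ± 3.21 CPM in rad6Δ tagged against 4.57 ± 2.04 in WT tagged (SD). It averaged 2.49 ± 0.738 CPM in rad6Δ untagged against 6.68 ± 0.823 in WT untagged.

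In the glucose repression arm, 4 of 13 listed genes changed in rad6Δ tagged, H2B-K123R and rtf1-108-110AAA, 3 in rad6Δ untagged and 2 each in the rad6-R6Q and rad6-R6A,M10A strains. The share of the list was below the all-gene share just given in both deletions, rad6-R6Q and rad6-R6A,M10A, and above it in H2B-K123R and rtf1-108-110AAA. REG1, which encodes the regulatory subunit of the phosphatase that opposes the kinase Snf1, rose in all 6 mutants by 0.30 to 0.72 on the log2 scale. SNF4, which encodes the activating subunit of Snf1, fell in all 6, with log2 fold changes from -0.66 to -0.39. HXK2, for the main hexokinase in glucose, fell in 4, with -0.71 in rad6Δ tagged, -0.88 in rad6Δ untagged, -0.62 in the H2B-K123R strain and -0.41 in the rtf1-108-110AAA strain. SIP1, for a further Snf1 subunit, fell in the H2B-K123R strain (-0.33) and rtf1-108-110AAA (-0.27). MIG1 was called in none.

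Of 12 genes known to be repressed by glucose, 11 were tested. In H2B-K123R 5 rose and 1 fell, in each RAD6 deletion 4 rose and 1 fell, in rad6-R6A,M10A 3 rose and 1 fell, in the rad6-R6Q strain 2 rose and 2 fell, and in the rtf1-108-110AAA strain 0 rose and 3 fell. Over all genes 14% rose and 12.3% fell in the H2B-K123R strain. For rad6Δ tagged the shares were 21.5% risen, 20.2% fallen, for rad6Δ untagged 22.3% risen, 20.5% fallen, for rad6-R6A,M10A 12% risen, 13.2% fallen, for rad6-R6Q 14.6% risen, 14.5% fallen, and for rtf1-108-110AAA 11.9% risen, 12.6% fallen. No test of the list was made. SUC2, for invertase, fell in all 6 mutants, with log2 fold changes from -1.02 to -0.55. MLS1, for malate synthase, and JEN1, for a lactate carrier, rose in all but rtf1-108-110AAA. There MLS1 had a log2 fold change of 1.36 (edgeR adjusted p = 0.0678) and JEN1 of 0.64 (edgeR adjusted p = 0.0781). CAT8, for an activator of gluconeogenic genes, rose in 4 mutants, by 1.10 in rad6Δ tagged, 1.19 in rad6Δ untagged, 0.83 in the H2B-K123R strain and 0.59 in rad6-R6A,M10A.

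Of 8 listed genes of the Msn2 and Msn4 stress response, 3 rose in each RAD6 deletion and in the H2B-K123R strain, 0 were called in the rad6-R6Q and rad6-R6A,M10A strains, and 1 fell in the rtf1-108-110AAA strain. Over all genes 21.5% rose in rad6Δ tagged, 22.3% did in rad6Δ untagged and 14% did in the H2B-K123R strain. In the rtf1-108-110AAA strain 12.6% of all genes fell. Among all genes 29.1% were called in the rad6-R6Q strain and 25.2% in rad6-R6A,M10A. No test of the list was made, so 0 of 8 is not read as a difference between mutants. HSP26, for a small heat shock protein, rose by 1.98 in rad6Δ tagged, 2.04 in rad6Δ untagged and 1.99 in the H2B-K123R strain on the log2 scale. HSP12 rose in rad6Δ untagged (3.15) and H2B-K123R (2.76), and SOL4 in rad6Δ tagged (1.93) and rad6Δ untagged (1.54). CTT1, for cytosolic catalase, rose in the H2B-K123R strain (0.90) and fell in the rtf1-108-110AAA strain (-0.94).

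Of 11 other genes listed for the family, HXT12 was absent from the counts and 7 passed the filter. Of these HXT8 averaged 4.64 CPM, HXT10 2.75 CPM and HXT9 1.87 CPM in WT tagged, above the member HXT5 there at 0.723 CPM. HXT10 reached 10.05 CPM in the H2B-K123R strain, above the member HXT6 there at 6.70 CPM. HXT10 and HXT14 rose in all mutants but rtf1-108-110AAA. HXT10 rose by 0.99 in rad6Δ tagged, 1.73 in rad6Δ untagged, 2.67 in the H2B-K123R strain, 0.86 in the rad6-R6Q strain and 1.40 in rad6-R6A,M10A, and had 0.50 (edgeR adjusted p = 0.131) in the rtf1-108-110AAA strain. HXT14 rose by 1.64 in rad6Δ tagged, 3.79 in rad6Δ untagged, 3.63 in the H2B-K123R strain, 1.19 in the rad6-R6Q strain and 1.62 in rad6-R6A,M10A, and had 0.91 (edgeR adjusted p = 0.132) in the rtf1-108-110AAA strain. Its wild-type level was only 0.241 CPM in WT untagged and 0.795 CPM in WT tagged, so these fold changes rest on few counts. HXT8 fell in the 4 tagged mutants, with log2 fold changes of -0.66 in rad6Δ tagged, -1.09 in the rtf1-108-110AAA strain, -0.58 in the rad6-R6Q strain and -0.81 in rad6-R6A,M10A. HXT9 rose in rad6Δ tagged (1.34), rad6Δ untagged (1.70) and H2B-K123R (1.81), but only 46.4% of its 75-base words are its own, since HXT11 is a near copy.

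The genes whose level ran most like each member over the 24 libraries were found by Pearson's r of log2 CPM among 4598 tested genes averaging 10 CPM or more. These points share depth and strain groups, so r is a description. For HXT1 they were FCY21 (r = 0.951) and TPO1 (0.951), for HXT2 MUP1 (0.906) and CTS1 (0.864), and for HXT5 RCH1 (0.948) and CIT3 (0.917). For HXT3 they were CDH1 (0.847) and ATG23 (0.771), for HXT4 AGE2 (0.787) and TRM7 (0.783), for HXT6 TMC1 (0.775) and ECM29 (0.729), and for HXT7 VHT1 (0.745) and PEX27 (0.74). For SNF3 they were RAD50 (0.838) and YMR103C (0.816), and for RGT2 BXI1 (0.682) and STE13 (0.668). Among the members themselves, r was 0.669 between HXT1 and HXT2, -0.005 between HXT1 and HXT3 and -0.527 between HXT1 and HXT5.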

How the data were processed

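The members and gene lists were chosen with earlier results of these data known. The authors deposited raw counts per gene for sense, antisense and unstranded reads and for K. lactis. Per the submitters' processing notes, STAR 2.7.5a, featureCounts and DESeq2 were used with the builds R64 and sacCer3; how multi-mapped reads were handled is not given in the sources used here. Of 6571 identifiers, 5897 matched an R64 locus tag.

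Here, edgeR 4.0.16 (R 4.3.3, limma 3.58.1) fitted 8 group means to all 24 libraries with TMM scaling, filterByExpr and robust quasi-likelihood F tests. Antisense counts used the sense library sizes and factors. p-values were adjusted by Benjamini-Hochberg across the whole table, and genes were called under 0.05. SE is the fold change divided by the root of F. The code was tested on simulated data. Alternatives were RLE size factors, DESeq2 1.42.0, no filter, a replicate block, only the compared groups, K. lactis scaling, the unstranded counts, antisense library sizes, HXT6 and HXT7 summed, and each replicate left out. The K. lactis, unstranded and antisense alternatives change which reads or totals set a level. Labels call the replicates biological; if they were not separate cultures, p-values measure technical spread. Every pair of replicates differed by more than sampling noise (chi-square per degree of freedom from 5.534 to 86.07).

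The 9 members are all named; the 4 pathway genes named per list were those called in the most mutants, with ties by mean absolute log2 fold change. RGT1, STD1 and MIG1 were named after their values were seen. Same-numbered samples deviated together in every pair (correlation 0.188 to 0.517) for rad6Δ tagged with WT tagged, and (0.267 to 0.422) for rad6-R6Q with WT tagged, but not in the other comparisons. R64 sequences were read with Biopython 1.88.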

Additional observations from a re-analysis of the deposited data

How the results depend on the processing

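Scaling to K. lactis moved the all-gene median log2 fold change to 0.21 for rad6Δ tagged, 0.12 for rad6Δ untagged, -0.09 in the H2B-K123R strain, 0.25 in the rtf1-108-110AAA strain, 0.19 in the rad6-R6Q strain and 0.21 in rad6-R6A,M10A. HXT1 was below 0 and called under every setting in all 6 mutants against wild type. Of the results and settings compared, 1397 were labelled the same, 124 lost and 11 gained the threshold, 56 changed sign and 64 counts or values moved. The causes were not tested. For a fold change, the same means that direction and side of the threshold were kept. A count of members called could change somewhat and still be labelled the same. Shares and summed levels have no threshold and were labelled the same if they kept direction and moved by less than the larger group SD. Under K. lactis scaling these log2 values changed sign: in the H2B-K123R strain RGT2 to -0.0128, SNF3 to -0.062, HXT3 to -0.0592 and HXT4 to -0.0414; in the rtf1-108-110AAA strain RGT2 to 0.2177 and SNF3 to 0.1323; in the rad6-R6Q strain SNF3 to 0.182, HXT6 to 0.129 and HXT3 to 0.1229; in rad6-R6A,M10A RGT2 to 0.1193, SNF3 to 0.1754, HXT6 to 0.075 and the summed HXT1 to HXT7 level to 0.055; and between wild types RGT2 to -0.0295. In rad6Δ tagged RGT2 became -0.0026 with RLE factors, -0.0027 in DESeq2 and -0.0216 with HXT6 and HXT7 summed. With that sum HXT3 became -0.001 in the H2B-K123R strain and -0.0084 in the rtf1-108-110AAA strain, and HXT4 -0.0069 in the rtf1-108-110AAA strain. In the unstranded counts SNF3 became -0.015 and HXT3 -0.0131 in the H2B-K123R strain, HXT4 -0.0919 in the rtf1-108-110AAA strain, HXT5 0.1299 between wild types, 0.0348 in rad6-R6A,M10A against rad6Δ tagged, and -0.2257 in the difference between RAD6 deletions. With replicate number as a block HXT4 in the H2B-K123R strain became -0.0244, and HXT6 in rad6Δ untagged, whose numbers do not pair the samples, had an edgeR adjusted p of 0.053; no other sense call of a member against wild type changed with the block. Sense members called became 2 with K. lactis scaling in rad6-R6A,M10A, 0 with unstranded counts in rtf1-108-110AAA against rad6Δ tagged, 0 with K. lactis scaling and 0 with HXT6 and HXT7 summed in rad6-R6Q against rad6Δ tagged, and in rad6-R6A,M10A against rad6Δ tagged 1 with only the compared groups, 0 with K. lactis scaling and 1 with the sum. Antisense members called became 0 in rad6Δ tagged (DESeq2, no filter, only compared groups), 1 in rad6Δ untagged (only compared groups, antisense library sizes), 0 in the H2B-K123R strain (DESeq2, K. lactis scaling, antisense library sizes), 0 in the rtf1-108-110AAA strain (DESeq2, no filter), 0 (DESeq2) or 1 (no filter, only compared groups, K. lactis scaling) in the rad6-R6Q strain, and 2 in rad6-R6A,M10A (K. lactis scaling). Leaving out each replicate, sense members called ranged over 4 to 6 (rad6Δ tagged), 3 to 5 (rad6Δ untagged), 2 to 2 in the H2B-K123R strain, 2 to 3 in the rtf1-108-110AAA strain, 3 to 5 in the rad6-R6Q strain, 3 to 4 in rad6-R6A,M10A, 0 to 1 between wild types, 1 to 3 in H2B-K123R against rad6Δ untagged, 0 to 1 in each rad6 substitution against rad6Δ tagged, 1 to 1 in rtf1-108-110AAA against rad6Δ tagged, 0 to 0 in the difference between RAD6 deletions, and antisense ones over 0 to 1 (rad6Δ tagged), 1 to 3 (rad6Δ untagged), 0 to 2 (H2B-K123R), 0 to 1 (rtf1-108-110AAA), 0 to 2 (rad6-R6Q) 0 to 1 (rad6-R6A,M10A) and 0 to 0 (between wild types). The log2 values that changed sign then ranged as follows: RGT2 from -0.0233 to 0.0389 with rad6Δ tagged, -0.0372 to 0.12 with rad6Δ untagged, -0.0216 to 0.17 in the H2B-K123R strain, -0.0876 to 0.0433 in the rtf1-108-110AAA strain and -0.0086 to 0.0984 between wild types; SNF3 from -0.0579 to 0.14 in the H2B-K123R strain, -0.13 to 0.0021 in the rad6-R6Q strain and -0.14 to 0.0171 in rad6-R6A,M10A; HXT3 from -0.0892 to 0.13 in the H2B-K123R strain, -0.15 to 0.17 in the rtf1-108-110AAA strain and -0.26 to 0.0375 in the rad6-R6Q strain; HXT4 from -0.155 to 0.23 in the H2B-K123R strain and -0.23 to 0.32 in the rtf1-108-110AAA strain; and HXT5 from -0.43 to 0.11 in rad6-R6A,M10A against rad6Δ tagged. Depth limits HXT5 sense and HXT2 and HXT4 antisense, at 2 to 147, 2 to 12 and 6 to 23 counts per library.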
